A study of Rattus norvegicus with 36 samples.

Results

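The genes described here are the nuclear genes of oxidative phosphorylation in rat liver. They were chosen by symbol alone: a probe set was a member where the platform annotation named exactly 1 gene with a symbol starting Ndufa, Ndufb, Ndufc, Ndufs, Ndufv, Sdh, Uqcr, Cox4, Cox5, Cox6, Cox7, Cox8 or Atp5, leaving out the complex I assembly factors starting Ndufaf. This gave 94 probe sets of 84 genes, of 31042 probe sets and 14217 genes on the array. Complex I had 36 genes, complex II 8, complex III 7, complex IV 17 and complex V, the ATP synthase, 16. Where a gene had several probe sets, the one with the highest mean stood for it.

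Liver was taken from 36 male Harlan Sprague Dawley rats, 7 weeks old at the start, after gavage on 5 consecutive days. The 6 groups of 6 arrays were corn oil alone (vehicle) and TBBPA.DBPE in corn oil at a lowest dose of 0.1 mg/kg, then 0.94 and 9.4 mg/kg, and at the top 94.3 mg/kg and 943 mg/kg. TBBPA.DBPE is the brominated flame retardant tetrabromobisphenol A bis(2,3-dibromopropyl) ether. Each array is read as 1 animal, although the labels only number the replicates, so p-values measure the spread between these samples. All values are log2 expression values from whole left lobe, in which fewer cells of a type and less RNA per cell cannot be told apart. Differences are log2 values of dose minus vehicle, and each adjusted p comes from limma with Benjamini-Hochberg adjustment over all 31042 probe sets.

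Oxidative phosphorylation takes place at the inner mitochondrial membrane. Complexes I and II pass electrons from NADH and succinate to ubiquinone, complex III passes them to cytochrome c, and complex IV hands them to oxygen. The proton gradient built on the way drives the ATP synthase. A few subunits are encoded by mitochondrial DNA and most by the nuclear genes treated here, many of which are known targets of the transcription factors NRF1 and GABPA and of the estrogen-related receptors, with the coactivator Ppargc1a. Hepatocytes are rich in mitochondria and use this ATP for glucose, urea and protein synthesis.

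The symbols take in some genes that are not catalytic subunits. Sdhaf1, Sdhaf2, Sdhaf3 and Sdhaf4 encode assembly factors of succinate dehydrogenase. Atp5if1 encodes the inhibitor of the ATP synthase, Ndufab1 the mitochondrial acyl carrier protein, and Cox7a2l a factor of respiratory supercomplexes. Cox6c-ps1 is annotated as a pseudogene. Ndufa4, named after complex I, is known as a subunit of complex IV, and was counted under complex I by its symbol. Another 7 probe sets were left out because they name a second gene beside Atp5mc1, Atp5mc2, Cox7a2, Cox5a, Uqcrb, Ndufs5 or Ndufa10. Cox5a stayed a member through its remaining probe set.

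Promoters are shown for the members that mark the ends of the 2 patterns described further on, the covariation between animals and the differences at 943 mg/kg. Ndufa7 had the highest and Atp5f1a the lowest median correlation with the other members over the 36 animals. Atp5mf had the smallest p among members higher at 943 mg/kg and Sdha the smallest among those lower. Each sequence is the 250 bases before the RefSeq start on build GRCr8, 5′ to 3′ on the gene's strand, which is the plus strand for all 4. They lie at chr7:15311196-15311445 (Ndufa7), chr18:73567287-73567536 (Atp5f1a), chr12:14535185-14535434 (Atp5mf) and chr1:30764303-30764552 (Sdha). Capitals mark matches to 7 motifs searched on both strands: GCGC and TGCGC separated by 1 base (NRF1), CCGGAAG (ETS factors including GABPA), AAGATGGC (YY1), TCAAGGTCA (estrogen-related receptors), TGACGTCA (CREB), GGGCGG (Sp1) and CCAAT.
Ndufa7: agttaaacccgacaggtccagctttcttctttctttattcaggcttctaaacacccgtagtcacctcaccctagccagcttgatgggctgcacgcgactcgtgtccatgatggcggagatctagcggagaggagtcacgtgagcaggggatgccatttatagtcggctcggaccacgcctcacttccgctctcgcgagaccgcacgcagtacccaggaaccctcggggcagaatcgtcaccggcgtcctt
Atp5f1a: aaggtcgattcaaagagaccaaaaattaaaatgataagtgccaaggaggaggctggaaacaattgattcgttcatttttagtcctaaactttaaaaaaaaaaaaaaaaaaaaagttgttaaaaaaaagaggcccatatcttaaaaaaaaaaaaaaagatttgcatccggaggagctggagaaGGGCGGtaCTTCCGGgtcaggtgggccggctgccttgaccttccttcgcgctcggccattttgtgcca
Atp5mf: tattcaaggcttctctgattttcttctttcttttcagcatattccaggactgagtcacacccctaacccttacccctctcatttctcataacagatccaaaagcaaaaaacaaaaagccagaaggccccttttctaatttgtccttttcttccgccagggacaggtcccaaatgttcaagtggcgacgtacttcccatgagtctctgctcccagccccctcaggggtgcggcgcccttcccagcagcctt
Sdha: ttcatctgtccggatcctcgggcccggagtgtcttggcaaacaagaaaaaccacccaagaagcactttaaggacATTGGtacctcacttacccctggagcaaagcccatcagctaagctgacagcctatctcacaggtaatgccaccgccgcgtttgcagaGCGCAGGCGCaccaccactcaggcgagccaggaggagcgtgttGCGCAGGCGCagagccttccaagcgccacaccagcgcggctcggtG
In Atp5f1a the capitals are an Sp1 match and a match to the ETS letters on the minus strand. In Sdha they are a CCAAT match and 3 NRF1 matches, all on the minus strand, of which the last runs past the start so that only its first base is shown. The Ndufa7 window held none of these letters, and in Atp5mf the single match, to YY1, lay after the start.

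The letters were counted across the members. RefSeq windows from 250 bases before to 50 bases after the start were found for 76 of the 84 genes. The NRF1 letters were in 15 of the 76 (19.7%), against 7.88% of the 13193 windows of genes on the array. The YY1 letters were in 16 (21.1%), against 4.48%, and 13 of the 14 matches on the gene's own strand lay past the start. The ETS letters were in 23 (30.3%), against 14.2%. The estrogen-related receptor letters were in 2 (2.63%), against 0.273%, those of Atp5mc3 and Sdhd. CREB letters were in 3 (3.95%), against 2.71%. Sp1 letters were in 35 (46.1%), against 55.8%, and CCAAT in 27 (35.5%), against 36.8%. A match is a description of letters and not a binding site.

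Most members, like 9501 of the 14217 genes on the array, had a mean above every array median in this tissue. Of the 84 genes, 76 lay above every array median in their mean, with array medians from 4.59 to 4.66, and are called bright below. The other 8 lay below every array median: Cox4i2, Cox6a2, Cox6b2, Cox6c-ps1, Cox7a1, Cox7b2, Cox8b and Ndufa4l2. Cox6a2, Cox7a1 and Cox8b encode the heart and skeletal muscle isoforms of complex IV subunits, Cox4i2 a lung isoform, and Cox6b2 and Cox7b2 testis isoforms. Their ubiquitous or liver counterparts Cox4i1, Cox6a1, Cox6b1 and Cox8a were all above the medians. The 7 muscle markers were likewise all below every array median. Of 7 hepatocyte markers 6 were measured and none was dim, the lowest mean being 12.8 for Cps1.

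Series-wide, any 2 arrays correlated between 0.989 and 0.997 over the probe sets. Vehicle replicate 1 had the lowest median of these correlations, 0.992. For the members, the animal that stood apart was 9.4 mg/kg replicate 4, and the values of covariation are given with and without it, an alternative added after seeing the data. The 3′ minus 5′ log2 difference of the Gapdh and Actb control probe sets, the measure of RNA quality in the values, lay between 0.419 and 0.760 over the 36 animals.

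The first comparison set each dose against vehicle, asking whether 5 days of TBBPA.DBPE altered the hepatic levels of these genes. No member passed the adjusted threshold of 0.05 at any dose in limma, as was the case for all genes of the array (0% called at each dose). Differences were small and mostly positive. At 943 mg/kg, 75 of the 84 genes stood above vehicle and the median difference was 0.065, while 50.8% of all genes were higher, with a median of 0.0018. Medians at 943 mg/kg were 0.065, 0.041, 0.083, 0.059 and 0.067 for complexes I to V. In that order, 32 of 36, 7 of 8, 7 of 7, 15 of 17 and 14 of 16 genes were higher. Only 10 of the 17 genes of complex IV were bright. These 10 were all higher, by 0.029 (Cox6c) to 0.20 (Cox7a2l). The rest of complex IV is dim, so its median and count are only rough.

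At an unadjusted p under 0.05, 14 members were higher at 943 mg/kg and 0 lower, against 3.21% of all genes higher and 2.6% lower. They were Ndufa4l2, Ndufb2, Ndufb5 and Ndufb6 of complex I, Sdhaf4 of complex II, Uqcr11 and Uqcrc2 of complex III, Cox5b and Cox7a2l of complex IV, and Atp5mf, Atp5mg, Atp5mk, Atp5mpl and Atp5po of the ATP synthase. The 9 genes that were lower there were Ndufa3, Ndufs1, Ndufv1 and Ndufv3 of complex I, Sdha of complex II, the dim Cox7a1 and Cox8b of complex IV, and Atp5f1a and Atp5f1b of the ATP synthase. Their differences lay between -0.09 for Sdha and -0.005 for Ndufv3.

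The lower doses, which share the same 6 vehicle arrays, gave smaller medians. At 0.1 mg/kg 65 of 84 members were higher (median 0.029), at 0.94 mg/kg 67 (0.051), at 9.4 mg/kg 57 (0.018) and at 94.3 mg/kg 62 (0.023). The corresponding shares of all genes were 50.6%, 51.4%, 51.2% and 52.5%. Members at an unadjusted p under 0.05 in the upward direction numbered 4 at 0.1 mg/kg (3.02% of all genes), 6 at 0.94 mg/kg (2.26%), 3 at 9.4 mg/kg (2.53%) and 3 at 94.3 mg/kg (4.04%). In the downward direction there was 1 at 0.1 mg/kg (2.4% of all genes), Sdha, and 0 at 0.94 mg/kg (1.77%), 9.4 mg/kg (2.06%) and 94.3 mg/kg (3.38%).

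Single animals decided part of these medians. Without 9.4 mg/kg replicate 4 the median at 9.4 mg/kg was -0.0074, and 39 of 84 members were higher. Without 94.3 mg/kg replicate 1 the median at 94.3 mg/kg was 0.0097. Vehicle replicate 3 had the lowest member mean of its group. Without it the medians at 0.1 and 0.94 mg/kg were 0.019 and 0.035, and 54 and 64 members were higher. At 943 mg/kg the median stayed between 0.056 and 0.075 and the number of members higher between 70 and 77 whichever of the 12 animals was left out.

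**Figure D1:**
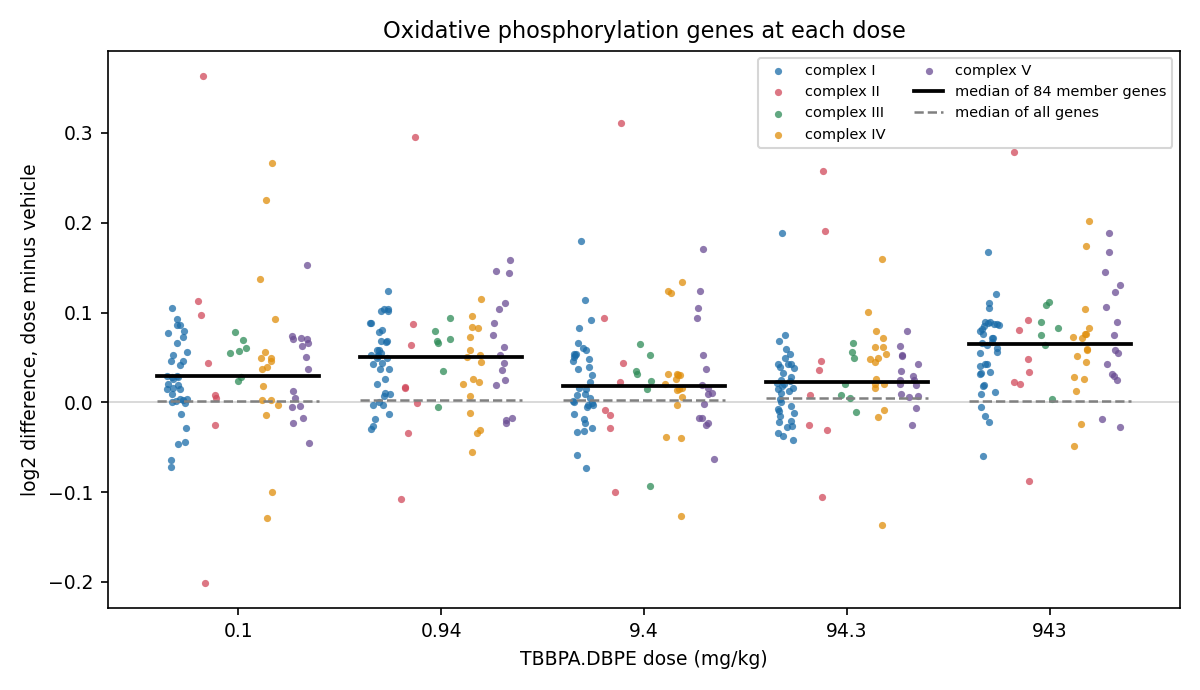
Log2 difference from vehicle (vertical axis) for each of the 84 member genes at each dose in mg/kg (horizontal axis), coloured by complex; black lines are the median of the members and dashed grey lines the median of all genes. The black line lies highest at 943 mg/kg (0.065), and Sdhaf4 of complex II is the topmost point at every dose.

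The arrays bounded how large a measured difference could have been. The 95% interval of the difference lay within 1.5-fold of vehicle for 83 of the 84 genes at 0.1 mg/kg and for all 84 at each of the other doses. The exception was Sdhaf4 at 0.1 mg/kg, with an upper bound of 0.60. For the 8 genes below every array median the interval does not bound the true difference, as signal this dim gives only a rough size. The median SE of a member difference was 0.051.

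The mean over the 76 members above the array medians summarises each animal. In ascending order of dose its group means were 10.64 ± 0.033 in vehicle, 10.67 ± 0.022, 10.69 ± 0.042, 10.66 ± 0.083, 10.66 ± 0.046 and 10.70 ± 0.018 (SD, n = 6 each). At 943 mg/kg its lowest, median and highest values were 10.68, 10.70 and 10.73, against 10.58, 10.64 and 10.67 in vehicle. All 6 animals at 943 mg/kg thus lay above the vehicle range, by a difference of group means of 0.067. At the other doses 4, 3, 2 and 2 of 6 animals did, from 0.1 to 94.3 mg/kg. The 9.4 mg/kg group was the widest because of replicate 4, at 10.82, and without that animal its mean was 10.63 ± 0.034 (SD, n = 5). The 3′ minus 5′ control difference ranged from 0.441 to 0.592 at 943 mg/kg and from 0.495 to 0.592 in vehicle.

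**Figure D2:**
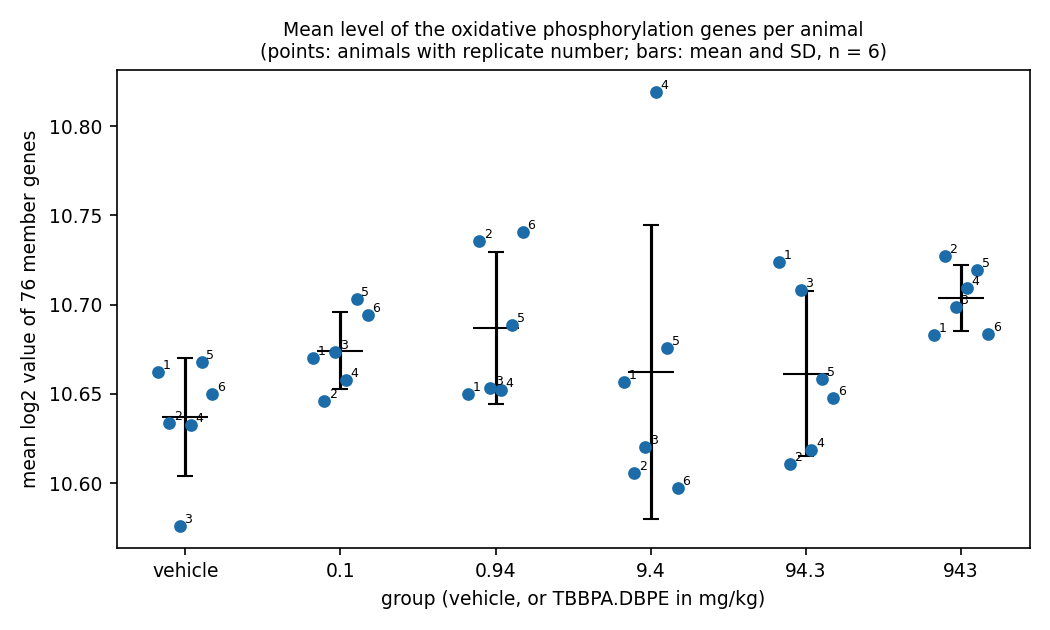
Mean log2 value of the 76 member genes above every array median (vertical axis) for each animal, by group in mg/kg (horizontal axis); points are animals with their replicate number, bars the mean and SD (n = 6). The 6 animals at 943 mg/kg lie between 10.68 and 10.73, all above the vehicle animals, and 9.4 mg/kg replicate 4 stands alone at 10.82.

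Among the subunits of succinate dehydrogenase, which ties the citric acid cycle to the respiratory chain, Sdha was the member with the smallest p in the downward direction at each dose. Its lowest, median and highest values were 10.42, 10.53 and 10.71 in vehicle, 10.22, 10.34 and 10.49 at 0.1 mg/kg, and 10.34, 10.44 and 10.51 at 0.94 mg/kg. They were 10.29, 10.48 and 10.51 at 9.4 mg/kg, 10.38, 10.43 and 10.49 at 94.3 mg/kg, and 10.32, 10.45 and 10.57 at 943 mg/kg. Vehicle replicate 1 was the highest of all animals, and every dose group overlapped vehicle, with 3 of 6 animals below the vehicle range at 0.1 mg/kg. At 0.1 mg/kg the difference was -0.20 ± 0.055 (SE), a ratio of 0.870, and did not pass in limma (adjusted p = 0.823). At the higher doses, with the same vehicle animals, it was -0.11, -0.10, -0.11 and -0.09 in ascending order. Without vehicle replicate 1 the difference was -0.07 at 9.4 mg/kg and -0.05 at 943 mg/kg.

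Sdhaf4, which acts in the assembly of the flavinated Sdha, had the largest differences of any member and also the widest spread between animals. Its lowest, median and highest values were 7.67, 7.84 and 8.20 in vehicle, 7.97, 8.29 and 8.38 at 0.1 mg/kg, and 8.01, 8.13 and 8.41 at 0.94 mg/kg. They were 7.87, 8.23 and 8.61 at 9.4 mg/kg, 7.62, 8.24 and 8.31 at 94.3 mg/kg, and 7.99, 8.16 and 8.37 at 943 mg/kg. All dose groups overlapped vehicle, and the lowest single animal was at 94.3 mg/kg. The differences from the shared vehicle group were 0.36, 0.30, 0.31, 0.26 and 0.28 from 0.1 to 943 mg/kg, each ± 0.12 (SE), and none passed (adjusted p = 0.823 at 0.1 mg/kg and 0.865 at 943 mg/kg, limma). Sdhaf1, which helps to insert iron-sulphur clusters into Sdhb, had values of 8.22, 8.42 and 8.57 (lowest, median, highest) at 94.3 mg/kg and 8.13, 8.19 and 8.41 in vehicle. The groups overlapped and the difference of 0.19 ± 0.070 (SE) did not pass (adjusted p = 0.564, limma).

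Of the ATP synthase, Atp5mf, the f subunit of its membrane part, had the smallest p among members higher at 943 mg/kg. Its lowest, median and highest values were 11.20, 11.30 and 11.34 in vehicle, 11.22, 11.38 and 11.44 at 0.1 mg/kg, and 11.36, 11.46 and 11.51 at 0.94 mg/kg. They were 11.32, 11.37 and 11.53 at 9.4 mg/kg, 11.21, 11.32 and 11.46 at 94.3 mg/kg, and 11.32, 11.44 and 11.48 at 943 mg/kg. The 6 animals at 0.94 mg/kg lay above all vehicle animals, while at 943 mg/kg 5 of 6 did and at 94.3 mg/kg 2 of 6. The difference was 0.13 ± 0.048 (SE) at 943 mg/kg, 1.09-fold, and 0.15 ± 0.048 (SE) at 0.94 mg/kg, and neither passed (adjusted p = 0.865 and 0.999, limma).

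Atp5mk, a small accessory subunit of the membrane part, had values of 11.11, 11.13 and 11.24 (lowest, median, highest) at 943 mg/kg and 10.75, 10.99 and 11.06 in vehicle. These groups did not overlap, and vehicle replicate 3 lay far below the other vehicle animals. The difference was 0.19 ± 0.071 (SE), 1.14-fold, and did not pass (adjusted p = 0.865, limma). Without vehicle replicate 3 it was 0.14. At the lower doses, with the same vehicle group, the differences of Atp5mk were 0.07, 0.14, 0.11 and 0.006 in ascending order.

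In complex IV, Cox5b, a peripheral subunit on the matrix side, had values of 11.48, 11.52 and 11.60 (lowest, median, highest) at 943 mg/kg and 11.36, 11.44 and 11.48 in vehicle. The groups did not overlap, but the lowest animal at 943 mg/kg and the highest vehicle animal were nearly level. The difference was 0.10 ± 0.042 (SE), 1.07-fold (adjusted p = 0.865, limma). Uqcr11 of complex III, a small membrane subunit, was the third member without overlap, with 10.84, 10.86 and 10.94 at 943 mg/kg and 10.70, 10.75 and 10.83 in vehicle. Here too the nearest animals of the groups were almost level. The difference was 0.11 and did not pass (adjusted p = 0.865, limma). In all, 3 members had every animal at 943 mg/kg above the vehicle range (0.232% of all genes) and 1 did at 0.94 mg/kg (0.134%). At 0.1, 9.4 and 94.3 mg/kg it was 0 members (0.155%, 0.113% and 0.274% of all genes). In the other direction 0 members had every dosed animal below the vehicle range, against 0.12%, 0.0985%, 0.0844%, 0.141% and 0.0914% of all genes from 0.1 to 943 mg/kg.

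Cox7a2l had the smallest p of the moderated F test over all 6 groups. Its lowest, median and highest values were 9.62, 9.82 and 9.94 in vehicle, 9.90, 10.14 and 10.22 at 0.1 mg/kg, and 9.62, 9.90 and 9.99 at 0.94 mg/kg. They were 9.61, 9.92 and 10.17 at 9.4 mg/kg, 9.59, 9.87 and 10.09 at 94.3 mg/kg, and 9.88, 10.05 and 10.13 at 943 mg/kg. The lowest and the highest dose stood highest, with 4 of 6 animals each above the vehicle range, and the doses between overlapped vehicle broadly. The difference was 0.27 ± 0.084 (SE) at 0.1 mg/kg and 0.20 ± 0.084 (SE) at 943 mg/kg, neither of which passed (adjusted p = 0.823 and 0.865, limma). Cox5a, the cytochrome c oxidase subunit Va, was 0.23 ± 0.092 (SE) higher at 0.1 mg/kg, where 1 of 6 animals exceeded the highest vehicle animal (limma, adjusted p = 0.855). Without vehicle replicate 1 that difference was 0.13, and without vehicle replicate 4 it was 0.29.

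**Figure D3:**
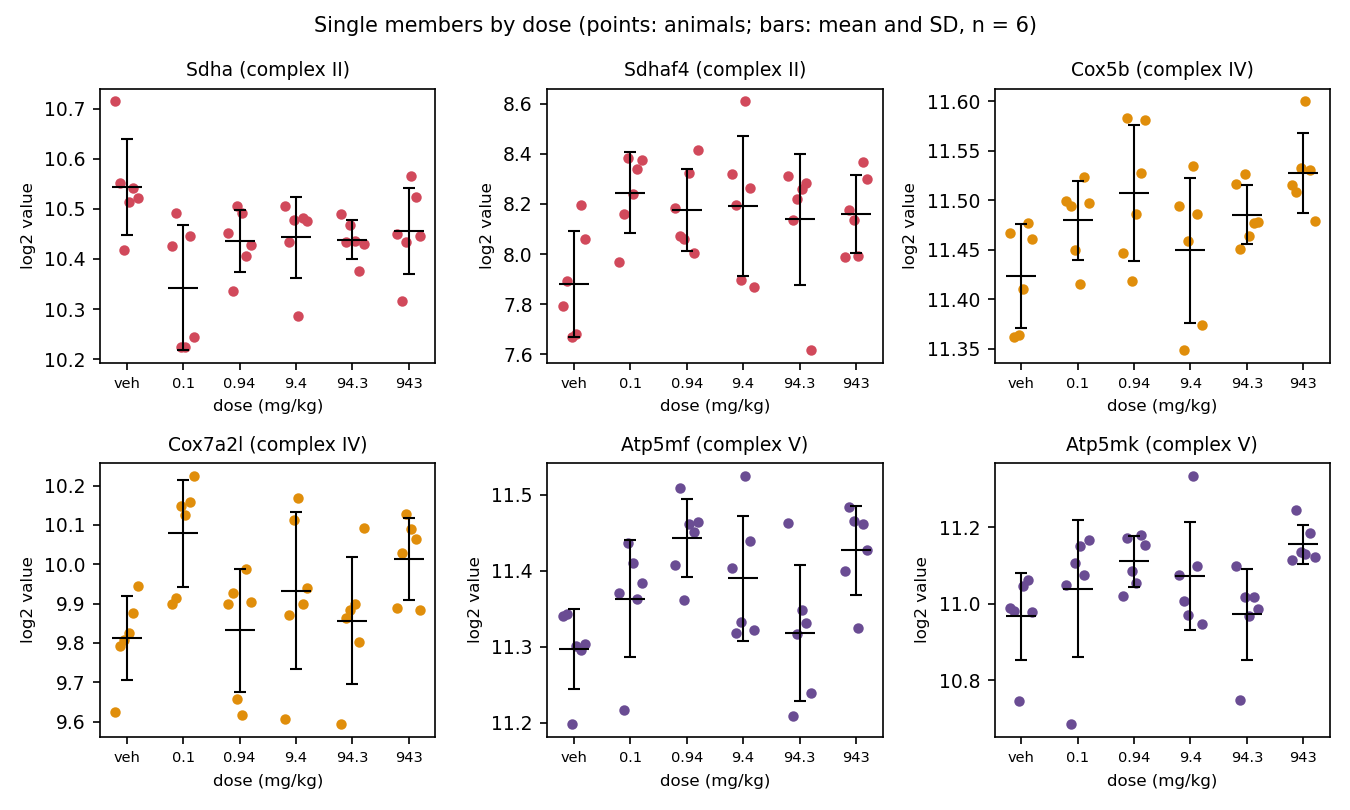
Log2 values (vertical axes, scaled per gene) of Sdha, Sdhaf4, Cox5b, Cox7a2l, Atp5mf and Atp5mk by dose in mg/kg (horizontal axes, veh for vehicle); points are animals, bars the mean and SD (n = 6). Sdha has its highest animal in vehicle (10.71), Sdhaf4 its highest at 9.4 mg/kg (8.61), and at 943 mg/kg Cox5b and Atp5mk lie above all vehicle animals.

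The F test called 0 members and 0% of all genes. At an unadjusted p under 0.05 it gave 3 members, Cox7a2l, Atp5mf and Sdha, against 5.58% of all genes, and the smallest adjusted p of a member was 0.916. The slope over dose rank also called 0 members and 0% of all genes. It was positive for 72 of the 84 genes, including all 16 of the ATP synthase, and for 52.2% of all genes. One member, Ndufa4l2, had an unadjusted p under 0.05 in the upward direction (2.8% of all genes), and 0 in the downward direction (2.82%).

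Ndufa4l2, a paralogue of Ndufa4 known to be induced by hypoxia, was among the 8 dim genes. Its lowest, median and highest values were 2.96, 3.04 and 3.15 in vehicle, 2.96, 3.13 and 3.26 at 0.1 mg/kg, and 3.07, 3.15 and 3.31 at 0.94 mg/kg. They were 3.05, 3.20 and 3.51 at 9.4 mg/kg, 3.14, 3.22 and 3.40 at 94.3 mg/kg, and 3.10, 3.21 and 3.33 at 943 mg/kg. From 9.4 mg/kg upwards 4, 5 and 5 of 6 animals lay above the vehicle range, yet all groups overlapped vehicle. The slope was 0.03 ± 0.011 (SE) per dose step (adjusted p = 0.825, limma). Signal this dim gives only a rough size for the difference.

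The second subject was how the members varied between animals of the same dose group. Mean differences between doses do not enter, but animals of a dosed group may still differ in their response. The residual SD over the 76 bright members had a median of 0.0762. For the 9501 genes of the array above every array median it was 0.129, and 70 of the 76 lay below that value. The sets were not matched for brightness, so a low spread is not shown to be particular to the members. Residual SD was lowest for Cox8a (0.0400), a small complex IV subunit with a mean of 11.8. It was highest for Sdhaf4 (0.211), with a mean of 8.13. Within complex I it was lowest for Ndufb11 (0.0501) and highest for Ndufa2 (0.143). In complex III it lay between 0.0562 for Uqcrc2 and 0.0969 for Uqcrc1, and in the ATP synthase between 0.0450 for Atp5f1b and 0.141 for Atp5mg.

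Most pairs of members varied in the same direction between animals. As deviations from the dose group mean over 36 animals, the 2850 pairs of bright members had a median Pearson r of 0.344, and 85.1% of pairs were above 0. All gene pairs above every array median had a median of 0.0145, with a 5th percentile of -0.348 and a 95th of 0.395. These are descriptions: all genes were read on the same arrays, and share each animal's RNA, hybridisation and normalisation. Without 9.4 mg/kg replicate 4 the median over members was 0.230, with 77.8% of pairs above 0, and that over all gene pairs was 0.0147. That animal lay 0.157 above its group in the member mean, with 71 of 76 members above their group mean, while in vehicle replicate 3 only 7 of 76 were.

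Complex II had the lowest values when pairs were grouped by complex. Pairs within a complex had a median r of 0.392 and pairs between complexes 0.329. The ATP synthase had 0.443, complex I 0.401, complex III 0.388 and complex IV 0.362. Complex II had 0.120 with its assembly factors and 0.187 over the 4 subunits Sdha, Sdhb, Sdhc and Sdhd alone. Between complexes the highest median was that of complex III with the ATP synthase (0.454) and the lowest that of complex II with complex III (0.202). Without 9.4 mg/kg replicate 4 the medians were 0.269 within and 0.214 between complexes. By complex they were then 0.346 for the ATP synthase, 0.280 for complex I, 0.310 for complex III, 0.256 for complex IV, and 0.0448 for complex II, with 0.159 over its 4 subunits. The highest between complexes was then that of complex III with complex IV (0.348) and the lowest that of complex I with complex II (0.0956). Within single groups of 6 animals the median over members ran from 0.0684 at 0.1 mg/kg to 0.737 at 9.4 mg/kg, the last of which was 0.390 without replicate 4, and it was 0.110 at 943 mg/kg and 0.267 in vehicle.

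The members with the highest median r were Ndufa7 (0.590) and Ndufb9 (0.550), accessory subunits of complex I, Atp5mpl (0.565), a small protein of the ATP synthase membrane part, and Uqcr11 (0.549). The lowest was Atp5f1a, the alpha subunit of the ATP synthase. Atp5f1a had a median r of -0.275, Ndufs1 -0.194, Cox5a -0.168, Sdha -0.123 and Uqcrc2 -0.0721, and Atp5f1b, at 0.0366, was the next. Without 9.4 mg/kg replicate 4 the order changed: Ndufb9 was first, at 0.422, Uqcr11 had 0.410, Atp5mpl 0.373 and Ndufa7 0.363. At the low end of that order stood Ndufs1 (-0.134), Atp5f1a (-0.0734), Cox5a (-0.0532) and Sdhb (-0.0285), and Sdha had 0.0322. With the mean of the other members, r without that animal was -0.183 for Atp5f1a, -0.145 for Ndufs1, -0.112 for Cox5a, 0.0446 for Sdha and 0.0410 for Uqcrc2. The 6 measured core subunits of complex I had a median r with the member mean of 0.547, and of 0.378 without that animal. Here, unlike in the sentence before, the mean included the gene itself. In 9.4 mg/kg replicate 4 itself, where the member mean was highest, Sdha had the lowest value of its group, 10.29.

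**Figure D4:**
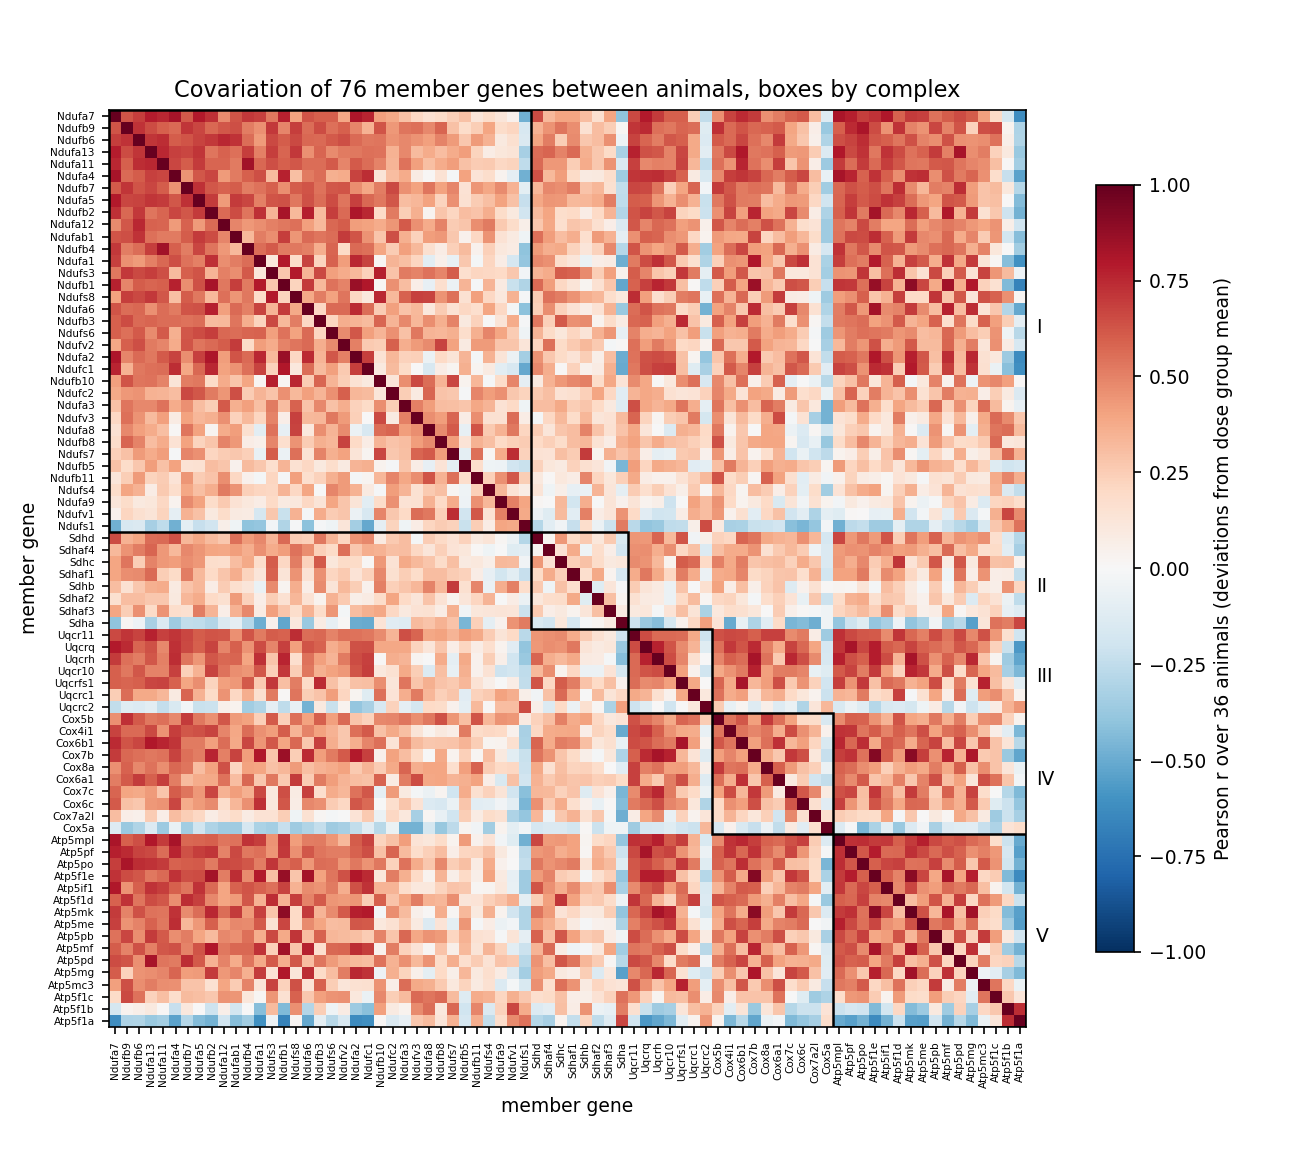
Pearson r (colour, from -1 in blue to 1 in red) between each pair of the 76 bright member genes over 36 animals, as deviations from dose group means; genes are ordered by complex and, within it, from the highest to the lowest median r, and boxes enclose complexes I to V. Most cells are red, and the blue bands are Ndufs1, Sdha, Uqcrc2, Cox5a and Atp5f1a.

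Genes outside the list were ranked by r with the member mean. The 8 with the highest r were Coa3 (0.893), Mrps23 (0.889), Bola2 (0.885), Naa38 (0.883), Mrps28 (0.877), Timm13 (0.863), Lage3 (0.858) and Scand1 (0.855), over 36 animals. Coa3 assists the assembly of complex IV, Mrps23 and Mrps28 belong to the small subunit of the mitochondrial ribosome, and Timm13 is a chaperone of mitochondrial protein import. Timm13, and Bola2, Naa38, Lage3 and Scand1, also among the 8, are in none of the lists of organelle genes described below. Coa3, Bola2, Timm13, Lage3 and Scand1 had genomic spans of 865 to 1424 bp. Mrps23, Naa38 and Mrps28 spanned 9580, 29412 and 130608 bp. The 4 with the lowest r were Phc3 (-0.764), Cstf2t (-0.742), Rnf44 (-0.730) and Ddx3x (-0.729). Without 9.4 mg/kg replicate 4 the 8 lay between 0.746 for Timm13 and 0.874 for Bola2, and the 4 between -0.742 for Cstf2t and -0.561 for Phc3.

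Members are short genes, and r with the member mean varied with gene length across the array. The genomic span had a median of 7180 bp for the 76 members and 23388 bp for 9398 other bright genes. Spearman's rho of span with r was -0.308 among members and -0.293 among the other genes, and -0.384 and -0.205 without 9.4 mg/kg replicate 4. When the other genes were cut into 5 equal classes by span, the shortest class reached 8024 bp. In it the median r with the member mean was 0.171 and the median difference at 943 mg/kg 0.028. In the longest class, from 66791 bp, they were -0.0626 and -0.04. The 38 shorter members had a median r with the other members' mean of 0.678 and a median difference of 0.075 at 943 mg/kg, the 38 longer ones 0.509 and 0.051. Leaving out 9.4 mg/kg replicate 4, the median r was 0.577 for the shorter and 0.406 for the longer members, and 0.124 and -0.0281 for the shortest and the longest class of other genes. The part of gene length in the members' differences was not tested. Genes are not independent replicates, and all share the same arrays.

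**Figure D5:**
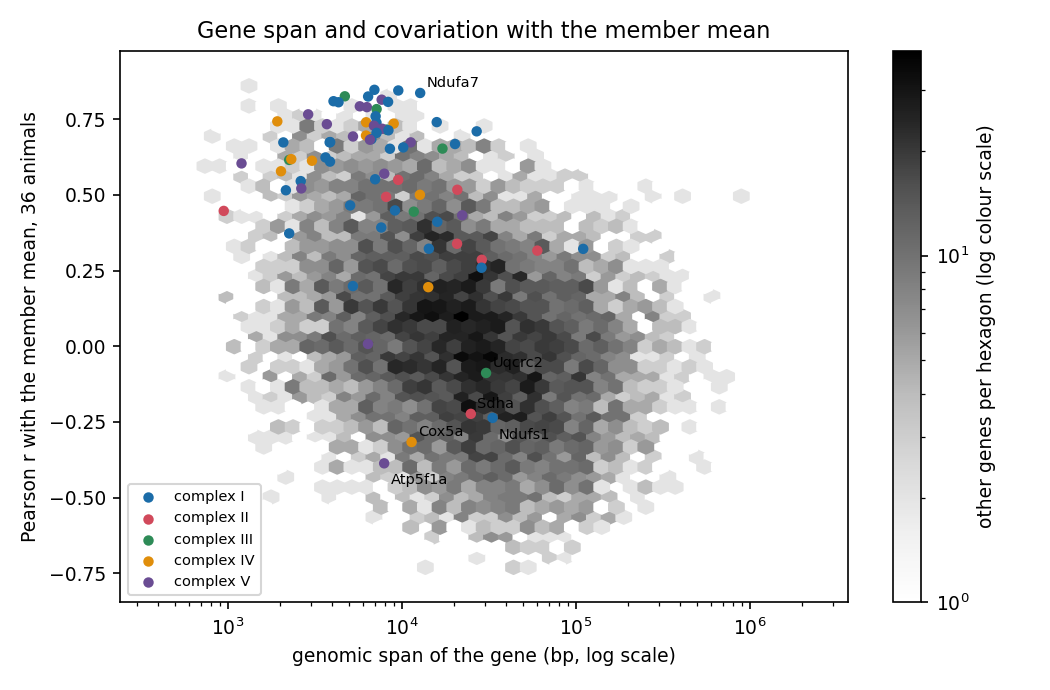
Pearson r with the member mean over 36 animals (vertical axis; for a member, the mean of the other members) against the genomic span of the gene in bp (horizontal axis, log scale); coloured points are the 76 bright members by complex and grey hexagons count the 9398 other genes (log colour scale). The grey cloud slopes down to the right, most members lie at its upper left edge, and Atp5f1a, Cox5a, Ndufs1, Sdha and Uqcrc2 lie below 0.

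RNA quality was set against each gene as a slope on the 3′ minus 5′ control difference within dose groups. In limma 0 members passed, against 0.19% of all genes (27). At an unadjusted p under 0.05 there were 11 members with a positive slope (3.84% of all genes) and 3 with a negative one (5.92%). The smallest adjusted p of a member was that of Ndufa1, an accessory subunit of complex I (slope 0.65 ± 0.19, SE, adjusted p = 0.118), and Sdha had a slope of -0.66 ± 0.21 (SE, adjusted p = 0.194). A second probe set of Uqcrc2 did pass, with a slope of -1.56 ± 0.23 (SE, adjusted p = 0.00113, limma). Ndufa1 passed as well when only the brighter 50% of probe sets were tested (adjusted p = 0.0384, limma) and with a variance trend and robust estimation (adjusted p = 0.0403, limma). The member mean and the control difference correlated at 0.178 over 36 animals, and at 0.152 without 9.4 mg/kg replicate 4. The control difference as a covariate was among 9 alternatives for the median pair correlation, which lay between 0.267 and 0.393. Beyond this, the part of RNA quality in the covariation of members was not tested.

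The slope on Ppargc1a, the coactivator of mitochondrial biogenesis, also gave 0 members in limma, against 0.366% of all genes (52). At an unadjusted p under 0.05, 3 members had a positive slope (5.13% of all genes) and 0 a negative one (4.89%), and the smallest adjusted p was 0.442. Ppargc1a itself averaged 4.98 at 943 mg/kg and 4.79 in vehicle, a difference of 0.19 ± 0.17 (SE, adjusted p = 0.906, limma). Its values lay close to the array medians of 4.59 to 4.66. With so weak a signal, a count of 0 cannot show whether the members follow Ppargc1a. Covariation was also set beside the promoter letters, as a description. The median r with the other members was 0.402 for 15 genes with the NRF1 letters and 0.395 for 55 without, 0.408 for 23 with the ETS letters and 0.395 for 47 without, and 0.363 for 15 with the YY1 letters and 0.403 for 55 without. With 9.4 mg/kg replicate 4 left out these medians were 0.277 and 0.246 for NRF1, 0.265 and 0.246 for ETS, and 0.240 and 0.252 for YY1.

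Other genes of the organelle were described by lists. No gene of any list passed at 943 mg/kg in limma. Of 73 genes of the mitochondrial ribosome (symbols starting Mrpl or Mrps), 68 were higher at 943 mg/kg, with a median of 0.067. Of these, 5 were at an unadjusted p under 0.05 (3.21% of all genes). At 0.94 mg/kg more were higher, 71, with a median of 0.088 and 11 at that p (2.26% of all genes). At 0.1, 9.4 and 94.3 mg/kg 62, 57 and 63 were higher. The share of all genes higher lay between 50.6% and 52.5% over the doses. The median r of the 73 genes with the member mean was 0.626, or 0.488 without 9.4 mg/kg replicate 4. The largest by p at 943 mg/kg were Mrpl28 (0.20 ± 0.061, SE), Mrpl48 (0.16 ± 0.059, SE) and Mrps6 (0.17 ± 0.071, SE), each with an adjusted p of 0.865 in limma. Of the complex I assembly factors 9 of 12 were higher (median 0.037), among them Ndufaf8 (0.15 ± 0.062, SE) and Tmem126b (0.12 ± 0.052, SE). Of the assembly factors of complexes III and IV 14 of 20 were higher (median 0.059).

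The lists of enzymes, regulators and carriers gave smaller medians. Of 11 enzymes of the citric acid cycle, 5 were higher at 943 mg/kg, with a median of -0.01 and a median r with the member mean of -0.0153, or -0.0572 without 9.4 mg/kg replicate 4. Citrate synthase, Cs, differed by 0.02 ± 0.061 (SE) and the oxoglutarate dehydrogenase Ogdh by -0.08 ± 0.061 (SE). Of 13 regulators 7 were higher (median 0.0006), with Tfb1m, a mitochondrial rRNA methyltransferase, at 0.15 ± 0.072 (SE) and the mitochondrial DNA polymerase Polg at -0.14 ± 0.075 (SE). Of 8 carriers and channels 5 were higher (median 0.025), of 4 electron carriers 3 (0.029) and of 3 ATP synthase assembly factors 1 (-0.03). The 6 measured core subunits of complex I, those conserved in bacteria, had a median of 0.034 with 4 higher.

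Marker lists of the cell types that liver tissue could hold were read in the same way. The mean of 6 hepatocyte markers ranged from 13.5 to 13.6 both at 943 mg/kg and in vehicle, and 4 of 6 were higher at 943 mg/kg with a median of 0.011. The mean of 4 macrophage markers ranged from 7.43 to 8.02 at 943 mg/kg and from 7.32 to 8.15 in vehicle, with 0 of 4 higher (median -0.07). Of the muscle markers 2 of 7 were higher, with list means from 2.79 to 3.01 at 943 mg/kg and from 2.82 to 3.04 in vehicle. Of 5 adipose markers, 4 of them dim, 3 were higher with a median of 0.10, and list means ran from 4.38 to 4.69 at 943 mg/kg and from 4.13 to 4.57 in vehicle. Of 3 endothelial markers 1 was higher (median -0.08), with list means from 7.78 to 7.85 at 943 mg/kg and from 7.72 to 8.00 in vehicle. Of 3 erythroid markers 1 was higher (median -0.01) and 1 was lower at an unadjusted p under 0.05, with list means from 7.22 to 7.95 at 943 mg/kg and from 7.34 to 7.81 in vehicle. Of 3 lymphocyte markers 2 were higher (median 0.05), with list means from 4.83 to 4.97 at 943 mg/kg and from 4.65 to 5.13 in vehicle. The part of other cell types in the member differences was not tested.

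A further 10 probe sets named a member alone. At 943 mg/kg none differed in sign from the probe set used. The 2 probe sets of Sdhd, which anchors complex II in the membrane, correlated at 0.827 over 36 animals (0.732 without 9.4 mg/kg replicate 4), and those of Uqcrc2 at 0.382 (0.373). The remaining 8 lay between -0.234 for Sdhaf2 and 0.281 for Ndufv3 (-0.229 and 0.292), and 4 of the 10 lay below every array median.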

How the data were processed

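The deposited table holds log2 values for each probe set of Affymetrix rat arrays. The authors made them with RMA and affy, as the submitters' processing notes name them without a version. RMA puts all arrays on a common distribution, so a shift shared by most genes cannot be seen. Of 31099 probe sets, 57 array controls were left out and 31042 tested without a filter; 20826 name 1 gene. All 36 arrays entered 1 model with a mean per dose group (R 4.3.3, limma 3.58.1), with a moderated F test, a slope over dose rank, and slopes on the control 3′ minus 5′ difference and on Ppargc1a within groups. Tests are two-sided, with Benjamini-Hochberg adjustment and a threshold of 0.05. The number of arrays limits the precision. The series' design text names R/maanova for the authors' comparison, which limma replaces here. The members, lists and tests were chosen with earlier results of these data known.

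Named members are the 3 with the smallest p per dose and direction, the first 4 of the F test and of the slope over dose, the ends of residual SD and of median r per complex, isoform sets, and up to 3 genes per companion list, with others described for a stated reason. Uqcr11 and the genes counted at 943 mg/kg were named after their values were seen. Replicate numbers were not used to pair the arrays in the main model. Same-numbered arrays had a median correlation of deviations of 0.0026, with 18 of 90 pairs over 0.1. For differently numbered arrays the values were -0.0094 and 62 of 450. These values cannot show whether same-numbered arrays share a batch, which the labels do not give. The test was tried on simulated data with independent probe sets and differences larger than those of the members. It cannot show how the test does with differences as small as those reported here. Promoter windows come from RefSeq on GRCr8. Alternatives were the upper 50% of probe sets, array weights, a variance trend with robust fitting, a replicate block and quantile normalization again. Others were the control 3′ minus 5′ difference as a covariate, other probe set choices and dose scores, and leaving out each animal.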

Additional observations from a re-analysis of the deposited data

Results flagged for a closer look

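Values of single animals were compared with the other 5 of their group, and 16 of 162 groups examined (6 summed levels and 21 genes) held an animal far from the rest. Chance flags about 5% of groups, against 9.88% here, and the members covary, so the flags are not independent. All values are log2.

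Of the 16, 5 belong to 9.4 mg/kg replicate 4. Its member mean was 10.82, where the next animal of the group had 10.68, and its ATP synthase mean was 11.37. In that animal Atp5mg, the g subunit of the ATP synthase, had 11.82 and Sdhd 11.57, both highest of the group, while Sdha had 10.29, the lowest. Vehicle replicate 3 was low, with a complex II mean of 9.41, an ATP synthase mean of 11.10, Atp5mf at 11.20 and Atp5mk at 10.75. At 0.1 mg/kg replicate 2 was low in 3 ATP synthase genes, with 11.22 for Atp5mf, 11.14 for Atp5mg and 10.68 for Atp5mk.

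The others were single. Sdhaf4 was at 7.62 in 94.3 mg/kg replicate 6, Atp5mk at 10.75 in 94.3 mg/kg replicate 2, the dim Cox7a1 at 3.71 in vehicle replicate 6, and Uqcrc1, a core protein of complex III, at 11.03 in vehicle replicate 1, the highest of its group.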

How the results depend on the processing

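The count of members passing the adjusted threshold was 0 at every dose, for the F test and for the slope over dose under every alternative run in limma, including the replicate block, with which the median pair correlation was 0.362. The count for the RNA quality slope was 0, and 1 (Ndufa1) with the upper 50% of probe sets by mean and with the variance trend and robust estimation, both added after seeing the data. With the mean of all probe sets of a gene, the difference of Ndufa9 at 0.94 mg/kg turned to 0.0050, against -0.03 with 1 probe set; its second probe set is dim. Leaving out each animal in turn gave member medians of 0.019 to 0.041 at 0.1 mg/kg, 0.035 to 0.060 at 0.94 mg/kg, -0.0074 to 0.030 at 9.4 mg/kg, 0.0097 to 0.034 at 94.3 mg/kg and 0.056 to 0.075 at 943 mg/kg, and a median pair correlation of 0.230 to 0.385. Over the other alternatives the median at 943 mg/kg was 0.055 to 0.072. Array weights and the variance model do not enter the pair correlation, which was not recomputed under them. With 6 arrays a group, a member difference had a median SE of 0.051, and the 8 dim members give no reliable size.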
